A study of Mus musculus with 36 samples.

Results

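The transcriptome of visceral white adipose tissue (visWAT) was compared between mice that lack Mlkl in fat cells and their WT littermates on a normal chow diet (NCD). This comparison holds 8 of the 36 RNA-seq libraries of the series, chosen by tissue, diet and genotype as the sample labels give them. Both genotypes have Mlkl alleles flanked by loxP sites. The Adi-KO mice also have the transgene Adipo-Cre, whose recombinase removes the flanked part in mature adipocytes, and the WT mice have no Cre. All 8 were male mice on a C57BL/6J background that had eaten NCD for 16 weeks, with 1 library from 1 mouse and no pooling. The Adi-KO mice were 166, 179, 197 and 199, and the WT mice were 165, 180, 182 and 183. Liver libraries of the same 8 mice, and visWAT libraries of 5 Adi-KO and 5 WT mice on a high-fat diet (HFD), were used only beside these. Cre is meant to act in fat cells, while the RNA came from whole tissue, so RNA from vessels, immune cells, fibroblasts and mesothelium is part of every value. The WT mice carry no Cre, so an effect of the Cre transgene and an effect of losing Mlkl cannot be told apart.

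MLKL is the pseudokinase that carries out necroptosis, a form of regulated cell death in which the membrane is broken from inside. Death receptors such as TNFR1, or the sensors TLR3 and ZBP1, lead to a complex of the kinases RIPK1 and RIPK3, and RIPK3 phosphorylates MLKL, which then gathers at the plasma membrane. Caspase-8 with FADD and the CFLAR protein holds this pathway back. In fat, MLKL has also been studied outside cell death, in lipid storage and membrane traffic. The question here was which transcripts of visWAT differ when adipocytes lack Mlkl and the mice are not overfed.

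Values are deposited FPKM, the fragments on a gene divided by its length in kilobases and by a library size. Genes were tested with limma on log2(FPKM + 1), for genes with a mean of at least 0.5 FPKM, and differences are Adi-KO minus WT on that scale unless a tool is named. Reads on genes ranged from 21967199 to 24991216 in the Adi-KO libraries and from 23895612 to 30322171 in the WT libraries.

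Both WT libraries 182 and 183 stood apart from the other 6 across the transcriptome. The first principal component held 50.0% of the variance and set library 183 apart, and the second held 24.8% and set library 182 apart. Seminal vesicle transcripts took 28.0% of the reads in WT 183, 0.0348% in WT 182, 0.0126% in Adi-KO 197 and at most 0.000141% in the other 5. Svs5, a secreted seminal vesicle protein, alone had 2993025 reads in WT 183. The library labelled WT 182 instead had high lipogenic and thermogenic transcripts. Its Elovl6, a fatty acid elongase, was at 286 FPKM against 7.42 to 21.5 in the other 7, and genes of lipid synthesis took 17.9% of its reads. Cox8b, a cytochrome oxidase subunit of brown fat, was at 268 FPKM there, and Nnat, an imprinted gene, was at 2.20 FPKM against 415.6 to 798.6 in the others. Fat cell markers were abundant in all 8 libraries, with Adipoq between 1114 and 1995 FPKM, so each library held fat tissue. The comparison was therefore given with 8 libraries, and again without WT 182, without WT 183, and without both, which leaves 2 WT mice.

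Mlkl itself was lower in the Adi-KO mice than in 3 of the 4 WT mice. The gene lies on chr8:112038429-112064809 (mm39, minus strand). It was at 2.20, 1.96, 2.49 and 2.10 FPKM in Adi-KO 166, 179, 197 and 199. It was at 5.11, 4.63, 2.29 and 3.91 FPKM in WT 165, 180, 182 and 183. The library labelled WT 182 lay inside the Adi-KO range, so it goes against its label for the targeted gene, and every direction drawn below from 8 libraries includes it as labelled. Group means were 2.19 ± 0.222 FPKM (SD, n = 4) in Adi-KO and 3.99 ± 1.23 (SD, n = 4) in WT mice, a ratio of 0.548. The two-sided exact permutation test gave p = 0.0571 (0.0857 adjusted over 6 genes), where 4 against 4 mice cannot go below 0.0286. The limma difference was -0.61 ± 0.18 (SE), with an adjusted p of 0.916 over 14063 genes. Without WT 183 it was -0.61 (limma adjusted p = 0.827). WT 182 was left out partly because of its Mlkl value, so the differences without it, -0.80, and without both libraries, -0.88, follow from that choice and are given with no test. Between 139 and 195 reads remained on Mlkl in each Adi-KO library.

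In liver, where Adipo-Cre is not expected to act, Mlkl did not separate the genotypes. It was at 2.40, 3.94, 2.23 and 1.62 FPKM in the Adi-KO livers and at 2.44, 2.18, 4.19 and 2.89 FPKM in the WT livers. On HFD the visWAT values were 2.53 ± 0.172 FPKM (SD, n = 5) in Adi-KO and 5.29 ± 0.652 (SD, n = 5) in WT mice, with ranges that did not meet (limma adjusted p = 0.00162).

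The rest of the necroptosis pathway showed no comparable difference. Of 16 listed genes 15 were tested, with Tnf below the filter. In the 8 libraries 10 were higher and 5 lower in Adi-KO mice, the median difference was 0.050 beside 0.012 over all genes tested, and Mlkl was the single member with an unadjusted limma p under 0.05. Ripk3, the kinase upstream of MLKL, was at 2.34 ± 0.682 FPKM in Adi-KO and 2.15 ± 0.305 in WT mice (SD, n = 4 each). Ripk1, its partner kinase, was at 3.15 ± 0.0888 FPKM in Adi-KO and 2.97 ± 0.146 in WT mice. Casp8, the protease that restrains the pathway, ranged from 10.7 to 12.8 FPKM in Adi-KO and from 9.04 to 12.6 in WT mice. All of these ranges overlapped. Without both libraries the list median was -0.015.

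**Figure D1:**
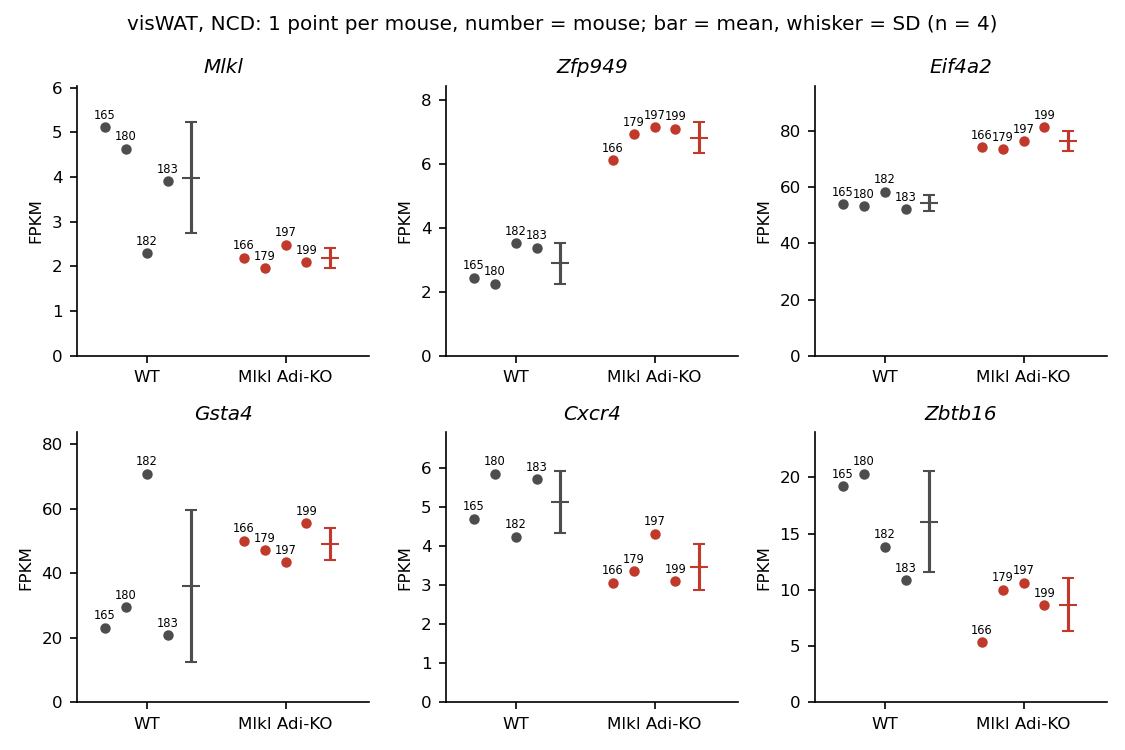
FPKM of 6 genes in visWAT of each NCD-fed mouse, Adi-KO and WT side by side, with bars for the mean ± SD (n = 4 per genotype). Zfp949 and Eif4a2 do not overlap between genotypes, the library labelled WT 182 lies among the Adi-KO values for Mlkl and above them for Gsta4, and Zbtb16 is higher in every WT mouse.

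Across the transcriptome, no gene passed the threshold in the 8 libraries. With limma, 0 of 14063 genes had an adjusted p under 0.05 (0.0%), and 528 had an unadjusted p under 0.05 (3.75%), of which 426 were higher and 102 lower in Adi-KO mice. With edgeR on whole reads 0 genes passed (0.0%), and with DESeq2 8 passed (0.0569%), namely Abcc3, Aldh1a2, Eif4a2, Foxa1, Hba-a2, Lypd8, Pla1a and Zfp949. The share of higher genes among those at unadjusted p under 0.05 depended on the scale between libraries: it was 426 of 528 as deposited, 326 higher and 171 lower with TMM, 323 and 292 with edgeR, and 730 and 18 on the TPM scale, which moved the median of all genes to 0.29. In 263 genes (1.87%) all 4 Adi-KO values lay above all 4 WT values, and in 83 (0.59%) all lay below.

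Leaving out the libraries that stood apart brought few genes over the threshold. Without WT 182, 1 of 14104 genes passed limma (0.00709%). Without WT 183, 0 of 13909 passed (0.0%). Without both, 3 of 13931 passed (0.0215%), of which 2 are named by symbol, Zfp949 (adjusted p = 0.022) and Igkv8-30 (adjusted p = 0.0277), and the third is a predicted gene described below. In this comparison of 4 with 2 mice, 620 genes had an unadjusted limma p under 0.05 (4.45%), 307 of them higher and 313 lower. The Adi-KO values lay all above the WT values in 879 genes (6.31%) and all below in 796 (5.71%). edgeR without both gave 3 genes (0.0215%) and DESeq2 20 (0.144%). Igkv8-30, an immunoglobulin light chain segment, was at 1.91 and 2.18 FPKM in WT 165 and 180 but at 0 and 0.177 in WT 182 and 183, and at no more than 0.166 in the Adi-KO mice. Its call thus rests on which WT mice are kept. WT 182 and 183 also held the 2 highest WT values of Zfp949, so leaving them out widened the difference of Zfp949 too.

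Zfp949, a zinc finger gene on chr9:88430073-88453114 (mm39, plus strand), showed the smallest p of all genes with 8 libraries. It was at 6.11, 6.94, 7.15 and 7.10 FPKM in Adi-KO 166, 179, 197 and 199. It was at 2.45, 2.26, 3.52 and 3.38 FPKM in WT 165, 180, 182 and 183. Every Adi-KO mouse lay above every WT mouse. The limma difference was 1.02 ± 0.12 (SE, unadjusted p = 2.43e-05, adjusted p = 0.342) and 1.22 without both libraries. The exact permutation test gave p = 0.0286, the smallest this design allows (0.0857 adjusted over 6 genes). Any gene whose ranges do not meet gets this p, and 1.87% of all genes were higher in every Adi-KO mouse. The permutation p thus restates the separation and adds no support to it. On HFD, Zfp949 was at 5.10 ± 0.696 FPKM in Adi-KO and 1.73 ± 0.148 in WT mice (SD, n = 5 each, limma adjusted p = 0.000211).

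Eif4a2, an RNA helicase of translation initiation, was also higher in each Adi-KO mouse. It was at 74.0, 73.4, 76.3 and 81.2 FPKM in the Adi-KO mice and at 53.8, 53.1, 58.3 and 52.1 FPKM in the WT mice, in the same order of mice as above. The groups did not overlap, and here the library labelled WT 182 lay with the other WT mice. The limma difference was 0.48 ± 0.08 (SE, adjusted p = 0.916), the exact permutation p was 0.0286 (0.0857 adjusted over 6 genes), and DESeq2 called it (adjusted p = 7.86e-06). Here too the permutation p only restates that the ranges do not meet, as in 1.87% of all genes.

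The other leading rises did not pass limma with 8, 7 or 6 libraries. They were picked among genes whose Adi-KO values all lay above all WT values, as in 1.87% of all genes. Their separation in the 8 mice is thus the rule of choice and not a result. Aldh1a2, the enzyme that makes retinoic acid, was at 4.98 to 6.14 FPKM in Adi-KO and at 3.86, 2.43, 2.69 and 3.29 FPKM in WT mice. Its difference was 0.71 ± 0.12 (SE), with an unadjusted p of 0.00034 in limma across all genes and an adjusted p of 0.916. Aldh1a2 is high in mesothelium, which covers visceral fat. Abcc3, an exporter of conjugated organic anions, was at 2.94, 3.56, 2.89 and 3.38 FPKM in Adi-KO against 1.19 to 2.08 FPKM in WT mice. Pla1a, a phospholipase that acts on phosphatidylserine, was at 14.96 to 16.2 FPKM against 9.90 to 13.0. Pctp, which carries phosphatidylcholine between membranes, was at 2.49 to 2.94 FPKM against 1.46 to 1.99. Tlr2, a receptor for bacterial lipopeptides, was at 1.49 to 1.78 FPKM against 1.03 to 1.13, and Pcolce2, which aids procollagen processing, at 3.69 to 4.54 against 2.32 to 3.32. The remaining genes were Evi2a and the pseudogene Morf4l1-ps1, with differences of 0.38 and 0.53.

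Hba-a2, an alpha globin gene, was at 57.2, 115, 62.7 and 84.0 FPKM in Adi-KO and at 37.4, 35.3, 43.1 and 29.0 FPKM in WT mice. The other globin genes did not separate: Hba-a1 ranged from 422.7 to 755.2 FPKM in Adi-KO and from 257.5 to 661.1 in WT mice. Hba-a1 and Hba-a2 are near-identical copies, so how the reads were split between them is uncertain.

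The leading falls, picked by the same rule in the other direction (0.59% of all genes), were between -0.15 and -0.82, and none passed limma. Zbtb16, a zinc finger transcription factor that glucocorticoids induce, was at 5.36, 10.03, 10.7 and 8.67 FPKM in Adi-KO and at 19.2, 20.3, 13.8 and 10.9 FPKM in WT mice. The highest Adi-KO value came close to the lowest WT value. The difference was -0.82 ± 0.24 (SE), with a limma adjusted p of 0.916, and -1.14 without both libraries. Gramd1b, which moves cholesterol from the plasma membrane to the endoplasmic reticulum, was at 3.92 to 4.82 FPKM against 5.01 to 7.32. Klhl25, a substrate adaptor of a cullin ubiquitin ligase, was at 2.11 to 2.21 FPKM against 2.68 to 3.996, and Iigp1, an interferon-induced GTPase, at 2.15 to 3.29 against 3.35 to 4.84. Cd79a, a signaling chain of the B cell receptor, was at 0.592 to 1.13 FPKM against 1.17 to 2.53. Zfp428, Zfp35, Xlr3b, B4galt7, which builds the linker of proteoglycans, and Cyb5r4, a cytochrome b5 reductase, completed the falls, with differences from -0.50 to -0.15.

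Other genes led the differences once WT 182 and 183 were left out. Gsta4, a glutathione transferase that clears 4-hydroxynonenal, was at 50.1, 47.2, 43.5 and 55.5 FPKM in Adi-KO and at 23.2, 29.5, 70.9 and 20.9 FPKM in WT mice. The library labelled WT 182 was the highest of all 8. The limma difference moved from 0.60 to 0.88 without both (adjusted p = 0.47), and DESeq2 without both called it (adjusted p = 4.55e-07). Mfap5, a microfibril glycoprotein of fibroblasts, Lrrn4cl, Rasl11b, Slc6a6, the taurine transporter, and the macrophage gene Ms4a6d were the other rises that the smaller set added, with differences from 0.34 to 0.58. Of these, Lrrn4cl and Ms4a6d also had ranges apart with 8 libraries. Among the falls the smaller set added Lpin3, a phosphatidate phosphatase, Rnf125, Myrip and the immunoglobulin segments Ighv11-2, Ighv2-9-1 and Igkv5-43. Ighv11-2 was at 11.7 and 6.69 FPKM in WT 165 and 180, at 0.48 and 0.567 in WT 182 and 183, and at 0 to 1.92 in the Adi-KO mice. Each segment can come from few B cell clones, and each of the 3 had WT 182 and 183 near the Adi-KO values.

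The same mice showed part of these differences in liver, a tissue without adipocyte Cre activity by design. Eif4a2 was at 99.6, 98.1, 109 and 95.5 FPKM in the Adi-KO livers and at 73.3, 71.5, 80.4 and 70.7 FPKM in the WT livers. The ranges did not meet, and the limma difference of 0.44 was close to the 0.48 in visWAT (adjusted p = 0.603 in liver). Zbtb16 was at 4.36, 9.86, 9.55 and 13.6 FPKM in the Adi-KO livers and at 18.7, 22.9, 16.4 and 21.9 FPKM in the WT livers, a difference of -1.10. Bcl6, a transcriptional repressor and a gene chosen after its values were seen, differed by -0.76 in visWAT and by -1.06 in liver. On HFD, in other mice, Zbtb16 and Bcl6 differed by 0.01 and 0.06, while Eif4a2 differed by 0.76. In the liver of the 8 mice 1 of 13193 genes passed limma (0.00758%), and without WT 182 7 of 13070 did (0.0536%).

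**Figure D2:**
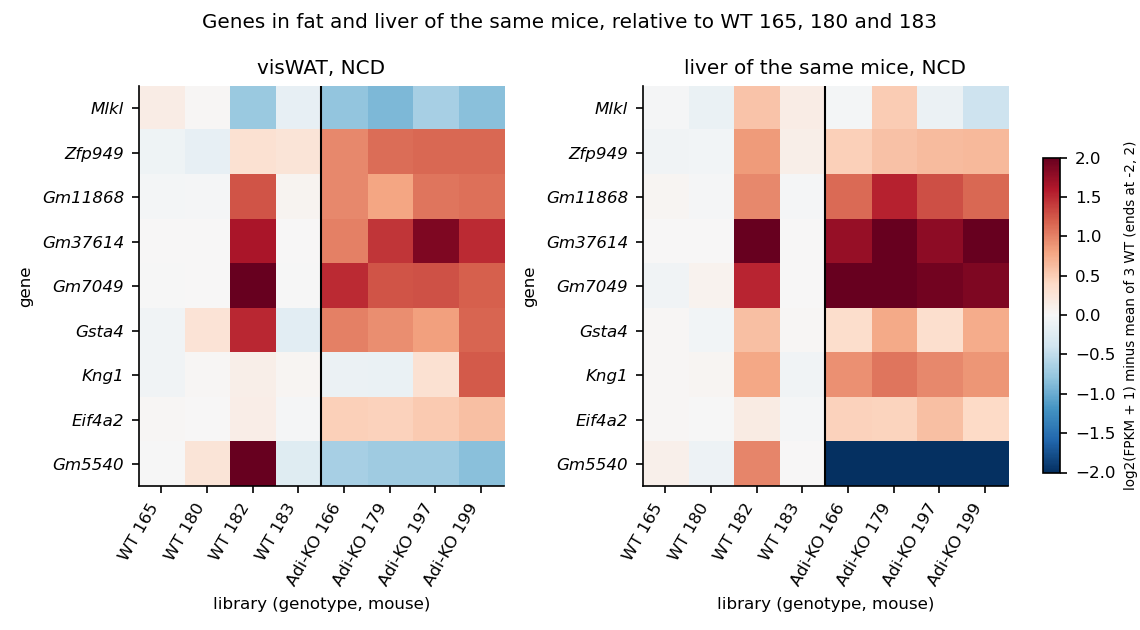
Values of 9 genes in visWAT and liver of each NCD-fed mouse, relative to the mean of WT 165, 180 and 183 on the log2(FPKM + 1) scale. The values of WT 182 lie with Adi-KO for some genes and with WT for others, and Eif4a2 and Gm5540 separate the genotypes in both tissues.

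Some of the genes named above lie near 2 places in the genome, an observation made after the values were seen. Eif4a2 (chr16:22926194-22932886, mm39) starts at -39.1 kb relative to the start of Adipoq (chr16:22965286-22976778), the adiponectin gene. Of 26 genes that start within 250 kb of Adipoq, itself included, 5 were tested and 21 were below the filter in visWAT. Rfc4, a subunit of the replication clamp loader at -18.8 kb from Adipoq, was at 3.04, 2.70, 3.24 and 3.81 FPKM in Adi-KO and at 2.02, 2.12, 4.38 and 1.87 FPKM in WT mice. WT 182 again exceeded the Adi-KO values. St6gal1, a sialyltransferase at 78.2 kb on the other side, overlapped between the groups (difference 0.28, and 0.09 without both libraries). Adipoq was at 1767, 1368, 1568 and 1995 FPKM in Adi-KO and at 1700, 1675, 1133 and 1114 FPKM in WT mice. Its difference of 0.27 (exact permutation p = 0.257) became -0.02 without WT 182 and 183, the 2 lowest libraries. Between 20 and 25 Mb of chromosome 16, 4 of 43 tested genes (9.3%) had an unadjusted limma p under 0.05, and 7 of 45 (15.6%) without both libraries. This stretch too was set after the values were seen, and its counts include Eif4a2.

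The second place is chromosome 9, where Zfp949 and Gsta4 (chr9:78090056-78116631) lie. In liver both overlapped between the genotypes. Zfp949 was at 3.61 to 4.18 FPKM in the Adi-KO livers and at 2.16 to 4.98 in the WT livers. Gsta4 was at 89.1 to 119.6 FPKM in the Adi-KO livers and at 68.1 to 107.3 in the WT livers. Between 75 and 90 Mb, 8 of 62 tested genes (12.9%) had an unadjusted limma p under 0.05, and 11 of 63 (17.5%) without both libraries. Among all genes it was 3.75% and 4.45%. The stretch was set around Zfp949 and Gsta4 after their values were seen and holds both. Its shares therefore cannot be set against those of all genes. Bckdhb, a subunit of the branched-chain ketoacid dehydrogenase in the same stretch, overlapped between groups on NCD (difference 0.09), and Tent5a, a poly(A) polymerase, differed by 0.27. The sources used here do not give where the Cre transgene lies.

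Predicted genes, also chosen after their values were seen, also split the WT mice. Gm7049, the gene that passed without WT 182 (limma adjusted p = 0.0299), was at 1.45 to 2.01 FPKM in the Adi-KO mice, at 0.0657, 0.0751 and 0.0572 FPKM in WT 165, 180 and 183, and at 22.6 FPKM in WT 182. Gm11868 was at 0.837 to 1.28 FPKM in the Adi-KO mice, at 0.038, 0.0435 and 0.11 FPKM in the same 3 WT mice, and at 1.55 FPKM in WT 182. Gm37614 was listed at 0 in the same 3 WT mice, at 2.11 FPKM in WT 182 and at 1.02 to 2.66 FPKM in the Adi-KO mice. Gm5540 went the other way, at 0.0187 to 0.149 FPKM in the Adi-KO mice and at 0.806, 1.17, 9.63 and 0.53 FPKM in WT 165, 180, 182 and 183. The library labelled WT 182 was thus like Adi-KO, or beyond it, for Mlkl, Gm7049, Gm11868, Gm37614, Gsta4 and Rfc4, and on the WT side for Eif4a2, Zfp949 and Gm5540, the last far above the other WT mice. In its liver Zfp949 was at 4.98 FPKM, above the Adi-KO livers at 3.61 to 4.18, and Mlkl was the highest of the 8 livers. That liver also stood apart for whole lists. Its list means were 2.08 for cell cycle, 3.09 for progenitor and fibroblast and 3.43 for macrophage genes. In the other livers they were 1.23 to 1.30, 1.81 to 2.14 and 2.60 to 2.95. In liver Gm5540 fell in the Adi-KO mice (difference -3.27, limma adjusted p = 0.00222).

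Groups of genes are given by their counts and medians, with no test of the group. In bulk tissue, fewer cells of a type and less RNA per cell cannot be told apart. No member of any list passed limma with 8 libraries, and without both libraries 1 did, Zfp949, in the list of genes named earlier for visWAT.

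Macrophage genes were on the whole higher in Adi-KO mice. With 8 libraries 20 of 23 tested macrophage genes were higher, with a median difference of 0.36 beside 0.012 over all genes. In 6 of them all Adi-KO mice exceeded all WT mice, which 1.87% of all genes did. Csf1r, the receptor of macrophage colony-stimulating factor, was at 15.1, 16.7, 22.4 and 18.6 FPKM in Adi-KO and at 14.5, 10.6, 12.2 and 11.4 FPKM in WT mice. The groups separated narrowly, with Adi-KO 166 lowest in its group and WT 165 highest in its group. Without both libraries 22 of 23 were higher (median 0.39). The mean level of the list overlapped between groups, at 3.14 to 3.798 in Adi-KO and 2.99 to 3.30 in WT mice, so the list as a whole did not separate them.

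Other immune genes were more varied. All 7 tested MHC class II genes, which present antigen, were higher in Adi-KO mice (median 0.42, 0.24 without WT 182 and 0.22 without both libraries), and none had ranges apart. Of 21 chemokine ligand genes 12 were higher and 9 lower in Adi-KO mice, from -0.61 to 0.65. In 3 of them all Adi-KO values exceeded all WT values, beside 1.87% of all genes. Among these were the myeloid chemokines Ccl6 and Ccl9, at 0.57 and 0.65. Of 8 chemokine receptor genes 5 were higher and 3 lower, from -0.46 to 0.35, with Ccr1 and Ccr2 at 0.33 and 0.35. Of the 7 B cell genes tested, 4 were lower and 3 higher in Adi-KO mice. Their median was -0.31, -0.51 without WT 182, -0.61 without WT 183 and -0.63 without both, where all 7 were lower. The mean level of the list overlapped, at 1.59 to 3.22 in Adi-KO and 2.07 to 3.42 in WT mice. Cd79b, the partner of Cd79a, was at 0.448 to 1.23 FPKM in Adi-KO and 1.19 to 2.04 in WT mice, an overlap by a small margin. All 8 tested T and NK cell genes were lower, with a median of -0.19 and unadjusted p over 0.05 for each. Of the 18 interferon-stimulated genes 14 were lower (median -0.15), among them Isg15 and Stat2, at -0.48 and -0.26. Their median was -0.06 without WT 183 and -0.07 without both libraries. On the TPM scale, which raised nearly all genes, 4 of 8 T and NK cell genes and 15 of 18 interferon-stimulated genes were higher. The B cell median was -0.10 on that scale.

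Stromal lists depended on WT 182 and 183 in different ways. Of 18 adipose progenitor and fibroblast genes 17 were higher in Adi-KO mice, with a median of 0.15, and 15 without both libraries, with a median of 0.24, the same as without WT 182 alone. Dcn, a collagen-binding proteoglycan, was at 146 to 175 FPKM in Adi-KO and 105 to 146 in WT mice, with WT 165 beside the lowest Adi-KO mouse. Mesothelial genes had a median of 0.17 over 12 genes, of 0.44 without WT 183 and of 0.58 without both libraries. Of the WT mice then left, WT 180 had a list mean of 2.09 and WT 165 of 2.98. The latter lay inside the Adi-KO range of 2.92 to 3.47. Msln, the mesothelial surface protein, was at 10.6, 9.91, 10.2 and 12.1 FPKM in Adi-KO and at 9.61, 3.69, 8.13 and 7.91 FPKM in WT mice, with WT 180 lowest by far. The keratin Krt18 reached 95.0 FPKM in WT 183, beside 0.604 to 12.4 in the other libraries, and 12.4 FPKM in Adi-KO 179. The part of mesothelium or epididymal tissue in these results was not tested.

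Endothelial genes changed sign with the libraries. With all 8, 15 of 17 were higher in Adi-KO mice (median 0.10), and without both libraries 0 of 17 were higher (median -0.26). Leaving out WT 182 or WT 183 alone gave 8 and 2 higher genes. Egfl7, secreted by vessel cells, was at 30.9 to 38.1 FPKM in Adi-KO and at 31.8, 42.3, 28.5 and 23.3 FPKM in WT 165, 180, 182 and 183. The 2 libraries that stood apart were the lowest. Smooth muscle genes had a median of -0.75 with 8 libraries, -0.02 without WT 183 and -0.15 without both. Seminal vesicle genes, which WT 183 carries, had -3.65 over 10 genes, -0.67 without WT 183 and 0.64 over the 7 that were tested without both. Those 7 passed the filter through Adi-KO 197, so their positive sign was fixed by the filter. Such genes took 0.0126% of the reads there and at most 0.000141% in the other libraries kept.

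The fat cell's own programs differed little once the 2 libraries were left out. Mature adipocyte genes had a median of 0.18 with 8 libraries, with 18 of 20 higher, of 0.01 without WT 183 and of -0.04 without both. They took 7.18% to 8.16% of the reads in the Adi-KO libraries, 7.72% and 8.17% in WT 165 and 180, and 5.12% and 4.02% in WT 182 and 183. Lipid synthesis genes had a median of -0.30 with 20 of 22 lower. It was 0.07 without WT 182, -0.61 without WT 183 and -0.01 without both. Of those 22, 19 were highest in WT 182. Brown and beige fat genes had a median of -0.63 over 11 tested genes and of -0.12 over 8 without both libraries, since some passed the filter through WT 182 alone. Cidea, a lipid droplet protein of thermogenic fat, was at 4.24 to 6.28 FPKM in Adi-KO and at 5.70, 14.9, 72.5 and 4.33 FPKM in WT mice. Ucp1, the uncoupling protein, was at 6.23 FPKM in WT 182 and at most 0.12 in the others.

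Mitochondrial genes were also highest in WT 182. Nuclear genes of oxidative phosphorylation, the respiratory chain and ATP synthase, had a median of -0.10 with 67 of 76 lower, and 73 of the 76 were highest in WT 182. Their median was 0.07 without WT 182, -0.20 without WT 183 and -0.02 without both. The 13 respiratory chain genes of the mitochondrial genome had -0.29 with 8 libraries, 0.04 without WT 182, -0.52 without WT 183 and -0.18 without both. Branched-chain amino acid catabolism had -0.08, 0.03, -0.19 and -0.08 in the same order, so its sign turned without WT 182. Fatty acid oxidation had -0.14, 0.09, -0.31 and -0.07. Lipolysis and lipid droplet genes had 0.11, 0.18, -0.05 and -0.07, and insulin signaling 0.01, 0.08, -0.06 and -0.02. The directions of these lists thus depended on WT 182 or WT 183.

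In the stress and clock lists few genes separated the groups. All Adi-KO values lay above all WT values for 1 of 24 immediate early and 2 of 20 clock genes, beside 1.87% of all genes. Immediate early genes, which respond within minutes to stimuli, had a median of 0.30, with 22 of 24 higher, and 0.23 without both libraries. The mean level of this list overlapped, at 2.79 to 3.64 in Adi-KO and 2.83 to 2.99 in WT mice, with Adi-KO 166 the lowest of all. Ier5, an immediate early gene, was at 4.98 to 6.03 FPKM in Adi-KO and 3.79 to 4.66 in WT mice. Clock genes had a median of 0.07, and 0.13 without WT 183, and Per3 and Bhlhe41, both clock repressors, differed by 0.44 and 0.31 with ranges apart. Glucocorticoid response genes went from a median of 0.07 to -0.12 without WT 182 and -0.14 without both libraries. Fkbp5, a chaperone that glucocorticoids induce, was at 6.70 to 10.5 FPKM in Adi-KO and at 11.5, 19.4, 7.18 and 14.8 FPKM in WT mice, with WT 182 inside the Adi-KO range. Fkbp5 differed by -0.48 in visWAT and by -0.72 in liver.

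**Figure D3:**
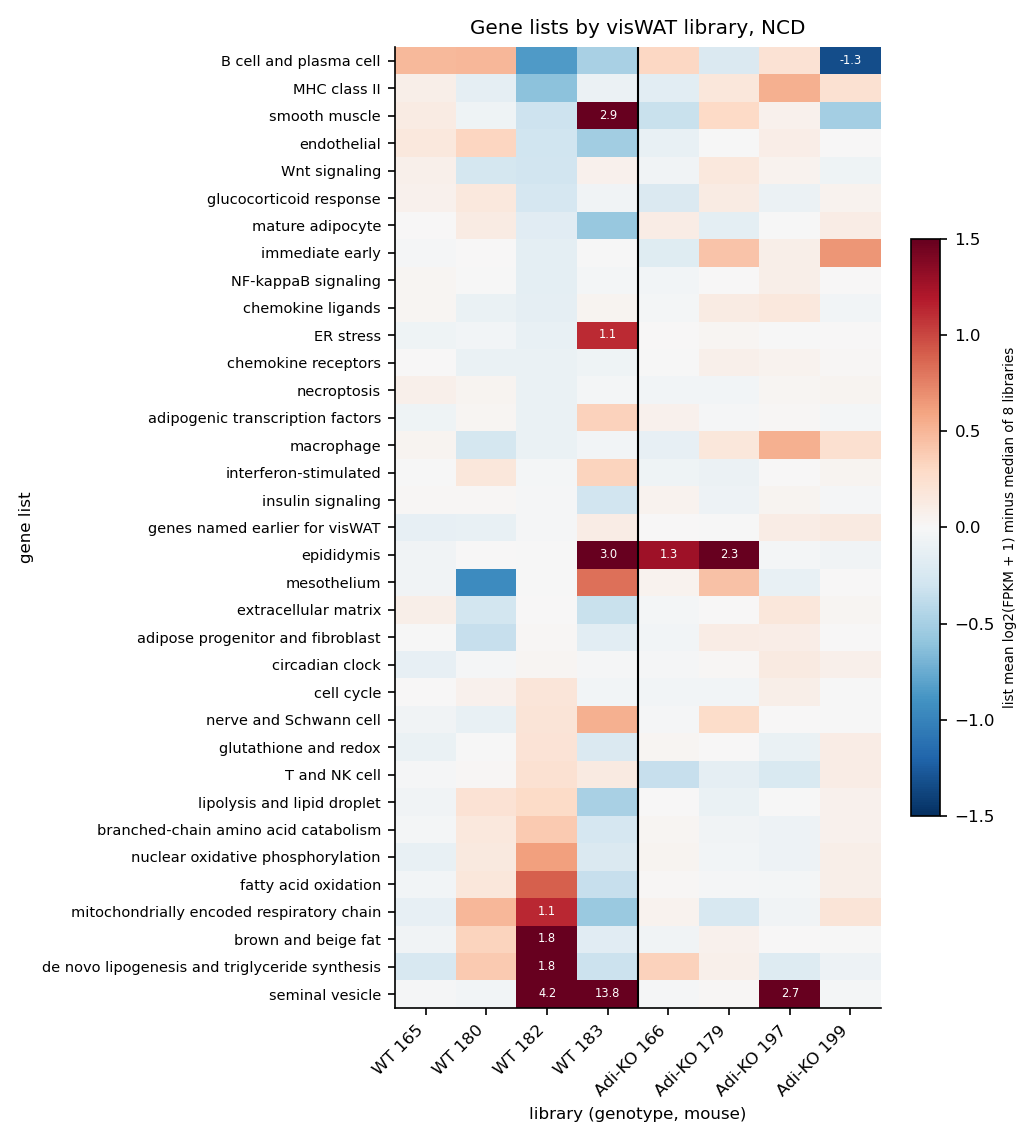
Mean level of each gene list in each NCD visWAT library, as the mean log2(FPKM + 1) of the list minus its median over the 8 libraries, with the colour scale ending at 1.5 in each direction. WT 182 stands out for lipid synthesis, brown and beige fat and oxidative phosphorylation, and WT 183 for seminal vesicle, smooth muscle and epididymis genes.

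Of 35 lists, 9 changed the sign of their median when WT 182 and 183 were left out, and 11 changed it on the TPM scale, which raised nearly all genes. The epididymis list, with 2 of 20 genes tested, had means of 1.32, 2.39 and 3.03 in Adi-KO 166, Adi-KO 179 and WT 183. In the other 5 it was at most 0.0647. The 2 genes differed by 1.478 and -1.175, and only 1, at 1.472, was tested without WT 183. In WT 183, 17 of the 20 members were at 0, against 10 and 8 in Adi-KO 166 and 179. The means thus do not show the same markers in these libraries. Nerve and Schwann cell genes, 4 of them tested, had a median of -0.01, and of 0.11 over 3 without both libraries. The lists of Wnt signaling, NF-kappaB signaling, adipogenic transcription factors, cell cycle and redox genes had medians between -0.06 and 0.10 with 8 libraries and without WT 182, WT 183 or both. ER stress genes had a median of -0.25, which became 0.06 without WT 183 and 0.05 without both. Extracellular matrix genes had 0.16, and 0.09 without WT 183. Chemokine ligands had 0.02, and 0.20 without WT 182, 0.11 without WT 183 and 0.11 without both, and chemokine receptors had 0.17, and 0.10 without both.

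**Figure D4:**
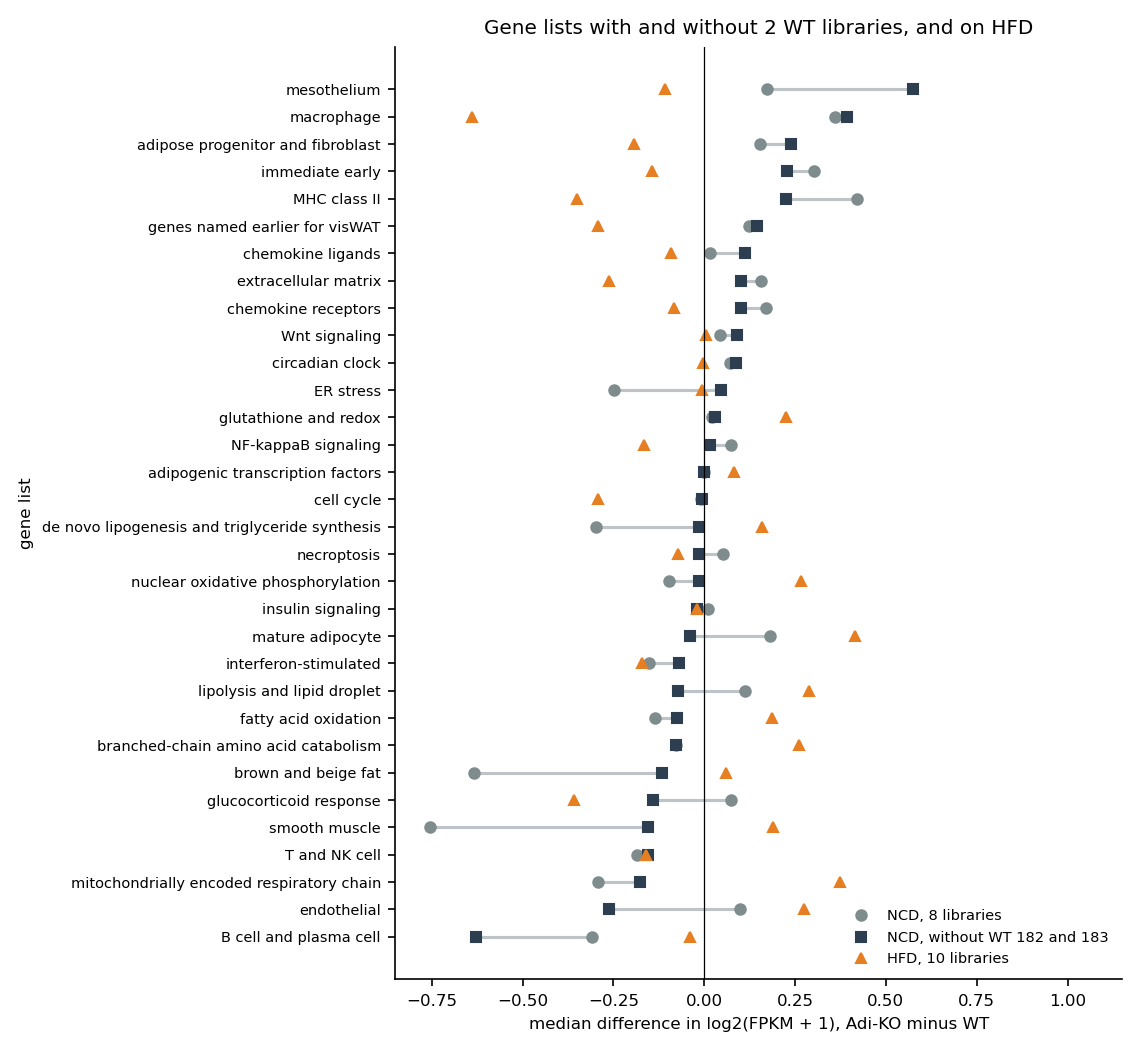
Median log2 difference (Adi-KO minus WT) of each list with 8 NCD libraries, without WT 182 and 183, and on HFD. The macrophage median is 0.36, 0.39 and -0.64 in that order, and the endothelial median is 0.10, -0.26 and 0.27.

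A further list holds genes named for visWAT by the study or in earlier results of these data, and was thus chosen on libraries of this series. Of 19 tested, 13 were higher and 6 lower in Adi-KO mice, and 5 higher and 1 lower had an unadjusted limma p under 0.05, as had 3.75% of all genes. Cxcr4, the receptor of the chemokine CXCL12, was the lower one. It was at 3.07, 3.37, 4.32 and 3.11 FPKM in Adi-KO and at 4.71, 5.87, 4.25 and 5.72 FPKM in WT mice. Adi-KO 197 and WT 182 overlapped by a small margin. The difference was -0.46 ± 0.12 (SE, unadjusted limma p = 0.00517, adjusted p = 0.916), the exact permutation p was 0.0571 (0.0857 adjusted over 6 genes), and on HFD the difference was -0.87. Foxa1, a pioneer transcription factor of epithelia, was listed at 0 in all 4 Adi-KO mice and in WT 165 and 180, at 0.377 FPKM in WT 182 and at 3.76 in WT 183. It was found only in the 2 WT libraries with the most seminal vesicle reads (exact permutation p = 0.429), although DESeq2 with 8 libraries called it (adjusted p = 3.53e-08). Cep85, a centrosome protein, was at 57.2 FPKM in WT 183 and between 6.34 and 8.98 in the other 7 libraries. Sgk1, a serum- and glucocorticoid-induced kinase, was at 13.0 to 24.9 FPKM in Adi-KO and 9.34 to 52.2 in WT mice. Tsc22d3, Wee1, Nr1d1, Irf2bp2 and Rcsd1 overlapped between the groups with 8 libraries. Their differences ranged from -0.01 to 0.31.

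Set beside HFD, the NCD differences agreed in sign for about as many genes as the whole transcriptome. The 2 diets used different mice. Of the 508 genes at unadjusted p under 0.05 on NCD and tested on both diets, 240 (47.2%) had the same sign on HFD, beside 47.0% of all 13146 genes tested on both. Without WT 182 and 183 it was 263 of 584 (45%), beside 48.1%. On HFD 3 of 13963 genes passed limma (0.0215%), Mlkl, Zfp949 and the predicted gene Gm11868.

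Macrophage genes had opposite signs on the 2 diets, with a median of 0.36 on NCD and -0.64 on HFD. In the test of the difference between diets, over 18 mice, 21 of 23 macrophage genes were more positive on NCD, 12 of them at an unadjusted limma p under 0.05 (9.03% of all genes were more positive at that p), and none passed adjustment (smallest adjusted p = 0.314). Csf1r differed by 0.54 on NCD and -0.69 on HFD. Nuclear oxidative phosphorylation genes were the reverse, -0.10 on NCD and 0.27 on HFD, with all 76 more negative on NCD and 17 of them at an unadjusted limma p under 0.05 (4.17% of all genes). The NCD median of these 76 was 0.07 without WT 182 and -0.02 without both. Branched-chain amino acid genes had 23 of 23 more negative on NCD, 7 at an unadjusted limma p under 0.05, where the NCD median turned positive without WT 182. Of 33 lists with values in both, 24 had medians of opposite sign on NCD without both libraries and on HFD.

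No single gene passed the test of the difference between diets. Of 14136 genes 0 passed limma (0.0%), and the smallest adjusted p was 0.105, for Abcc3 and Resf1. Abcc3 differed by 0.67 on NCD and -0.39 on HFD. Resf1, a chromatin factor that silences retroelements, differed by 0.24 and -0.74. Pctp differed by 0.43 and -0.58 (limma adjusted p = 0.207). Across all genes 1867 had an unadjusted limma p under 0.05 in this test, 1277 more positive and 590 more negative on NCD. This balance depended on the libraries and the scale. It was 707 and 632 without WT 182 and 183, and 3886 and 10 on the TPM scale.

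**Figure D5:**
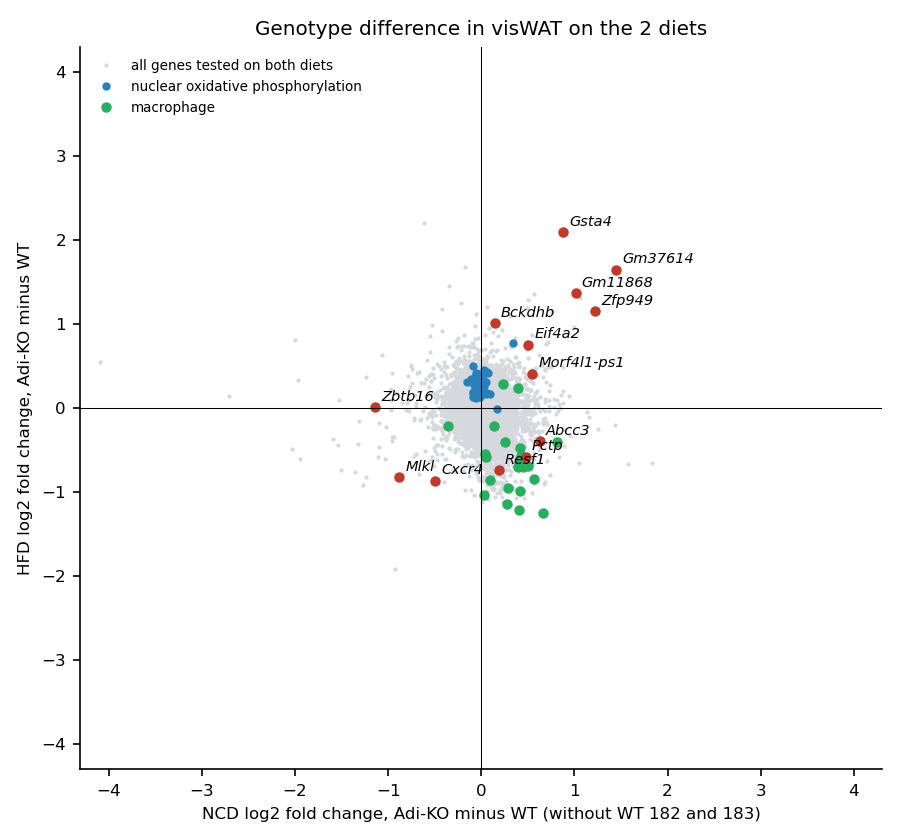
Log2 difference (Adi-KO minus WT) of each gene on NCD without WT 182 and 183, on the horizontal axis, against HFD, on the vertical axis, with macrophage and nuclear oxidative phosphorylation genes in colour. Macrophage genes lie mostly at positive NCD and negative HFD differences, and oxidative phosphorylation genes lie near 0 on NCD and above 0 on HFD.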

How the data were processed

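Genotype, diet and tissue were taken from the sample labels. Libraries were made from poly(A) RNA. Reads went through fastp and HISAT2 (mm39), and featureCounts 1.5.0-p3 assigned them to genes. The strand setting, the annotation release and how multi-mapping reads were handled are not given in the sources used here, which leaves values of overlapping, antisense and near-identical genes uncertain. For 56748 genes the authors deposited FPKM and, as other values, the gene length in bases. The counts deposited by the authors cover the genes of each comparison table. The authors' own comparisons in these tables, deposited as log2 ratios with p-values, were not used, nor were 72 further columns of sample values. Sample column names carry tissue and mouse number, which the labels give too.

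With the deposited counts, FPKM were turned back into reads, and 100% of values came out whole within 0.01. The size used for the FPKM lay between 1.01 and 1.40 times a library's gene reads, lowest in WT 182 and 183, so the deposited FPKM contain a scaling between libraries. Short genes near the filter rest on few reads, and a value of 0 is not absence. Replicate libraries differed by more than sampling noise, with a chi-square per gene of at least 12.6 for every pair.

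limma 3.58.1 (R 4.3.3) was fitted to log2(FPKM + 1), with an empirical Bayes trend, on the libraries of each comparison and genes with a mean of at least 0.5 FPKM, with Benjamini-Hochberg adjustment and a threshold of 0.05. edgeR 4.0.16 (quasi-likelihood) and DESeq2 1.42.0 on recovered reads, library weights, TPM and TMM scales, a pseudocount of 0.1, filters of 0 and 1 FPKM and leaving out each mouse were alternatives. Scripts were tested on simulated data. Genes named are Mlkl, the necroptosis genes, those named for visWAT by the study or in earlier results of these data, those within 250 kb of Adipoq, genes past the threshold, the 10 rises and 10 falls with the smallest p among genes of at least 1 FPKM in a group whose ranges do not meet (also without WT 182 and 183), and up to 2 members of each list per direction. For libraries 182 and 183 they also include genes farthest from the other libraries. Of 717 list entries 715 were matched by symbol, 16 of them through a synonym. Members and lists were chosen with earlier results of these data known, and the seminal vesicle list was first added after values were seen. One named gene is not reported here.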

Additional observations from a re-analysis of the deposited data

Results flagged for a closer look

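In 234 groups of 4 libraries examined, over 82 genes named above and 35 gene lists, the highest or lowest library lay far from the other 3 of its group in 25. Chance gives about 1 in 20 such groups, but some of these genes were named for their values in WT 182 or 183, so the number cannot be set against that rate. WT 183 accounted for 9 of the 25, WT 182 for 8, the 4 Adi-KO libraries for 8 together, and WT 165 and 180 for 0.

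In WT 183, Foxa1 was at 3.76 FPKM, Cep85 at 57.2, Krt18 at 95.0, Wee1, a cell cycle kinase, at 3.44, and Svs5 at 151200. In the same library the mean level of the list, on the log2(FPKM + 1) scale, was far above the other WT libraries for ER stress (5.52), epididymis (3.03) and smooth muscle (5.70) and far below for insulin signaling (3.16).

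In WT 182, the values far above the other WT libraries were Elovl6 at 286 FPKM, Cidea at 72.5, Ucp1 at 6.23, Rfc4 at 4.38, Gm7049 at 22.6, Gm5540 at 9.63, Gm37614 at 2.11 and Gm11868 at 1.55.

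Among the Adi-KO mice, 197 stood apart for Svs5 (45.9 FPKM), for the seminal vesicle list (mean level 2.71), for Cd79a (1.13 FPKM) and for Myrip (2.42 FPKM). Mouse 179 stood apart for Krt18 (12.4 FPKM) and for nerve and Schwann cell genes (mean level 1.71). Mouse 199 stood apart for Pctp (2.94 FPKM) and mouse 166 for Ighv2-9-1 (0.165 FPKM).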

How the results depend on the processing

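The number of genes past the threshold on NCD was 0 with 8 libraries and stayed within 20 under all alternatives that were run. It was 8 with DESeq2, 1 with library quality weights (Zfp949) and 2 with no filter, both predicted genes with 1 read in each WT library. Without WT 182 and 183 it was 3 with limma, and, in alternatives chosen after seeing the data, 3 on the TPM scale, 3 on the TMM scale, 3 with edgeR and 20 with DESeq2. Leaving out 1 mouse at a time gave 0 to 1, the 1 without WT 182. Without WT 165, 0 genes passed but 1389 had an unadjusted limma p under 0.05 instead of 528. For the other comparisons, also leaving out 1 mouse at a time, 3 to 16 genes passed on HFD (16 without Adi-KO 153), 1 to 7 in liver (7 without WT 182), and 0 to 14 in the test of the difference between diets (14 without WT 165). Adipoq changed sign without both WT libraries, to -0.025 with limma, -0.016 with DESeq2, -0.038 on the TMM scale and -0.020 with edgeR, but not on the TPM scale (0.0037). Mlkl, Cxcr4, Eif4a2 and Zfp949 kept their direction in all 21 alternatives. The causes of these shifts, the number of mice left among them, were not tested.

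No paired analysis was possible because the Adi-KO and WT mice are different animals that share no mouse number. The same numbers in visWAT and liver mark the same mouse in another tissue.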
